A study of Mus musculus with 7 samples.

Results

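Interferon-stimulated genes were examined in the contralateral mammary tissue, that is, the gland on the side without the tumor, of 7 mice that carried an incident tumor. The set was a list of 43 gene names, and members were the rows of the deposited matrix whose gene symbol equals one of the names. A row was found for 39 of the 43 names among the 23930 genes of the matrix, and Isg15, Ifit3, Irgm2 and Iigp1 were not analysed here. The 4 animals numbered 7, 8, 9 and 11, here HMMRTg/Tg mice, were Blg-Cre;HMMRTg/Tg;Brca1f/f;Trp53+/−, and the 3 numbered 1, 2 and 3, here control mice, were Blg-Cre;Brca1f/f;Trp53+/−. The HMMR transgene carries the human coding sequence in the Rosa26 locus behind a stop cassette that Cre removes. In both genotypes Cre is driven by the β-lactoglobulin promoter, so recombination, including deletion of the floxed Brca1 alleles, takes place in mammary epithelium, while a Trp53 allele is missing in the whole animal. All mice were parous and, according to the paper, of a mixed background. The labels call the genotypes age-matched and give no ages. The tissue was fixed in formalin and embedded in paraffin, each gene was read through 1 amplicon of a mouse transcriptome panel, and values are reads per 1e6 reads of the panel (RPM), which compare 1 gene between mice but not the levels of different genes.

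Interferons are secreted proteins that warn cells of viruses and of misplaced nucleic acid. Type I interferons, such as Ifnb1 and the Ifna family, are made after sensing of cytosolic DNA by the cGAS-STING pathway or of RNA by RIG-I-like receptors. They signal through Ifnar1 and Ifnar2, the kinases Jak1 and Tyk2 and a complex that holds Stat2 and Irf9 and binds the interferon-stimulated response element of its target genes. Type II interferon, Ifng, is a product of T and NK cells and signals through Ifngr1 and Ifngr2 to the gamma-activated sequence of its target genes, with Irf1 and the GBP and IRG GTPases among its strongest targets. In the mammary gland both epithelium and resident leukocytes can carry the response. The study examined cGAS-positive micronuclei in these mice, and the question put here to the deposited values is whether the levels of interferon-stimulated genes differed between the genotypes.

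The libraries held 5532358 to 9345916 reads, so that a count of 0 allows up to 3 reads, or 0.321 to 0.542 RPM, for counting error only. Markers of luminal (18 of 18) and of myoepithelial cells (9 of 10) were above 1 RPM in at least 3 mice, so the labelled tissue was borne out by its markers. Summed luminal markers ranged from 7797 to 44780 RPM in HMMRTg/Tg mice and from 6966 to 69880 RPM in control mice. Of 12 skeletal muscle markers, 10 were lower in HMMRTg/Tg mice at an adjusted p under 0.05 in limma, and their sum was 20.7 to 104 RPM in HMMRTg/Tg mice, against 1786 to 9701 RPM in control mice. The part of muscle in the results below was not tested. Summed B cell markers (9 genes) ranged from 39.8 to 928 RPM in HMMRTg/Tg mice and from 17.9 to 1038 RPM in control mice, T cell markers (10 genes) from 485 to 767 RPM and from 500.3 to 918 RPM, and macrophage markers (12 genes) from 2026 to 2958 RPM and from 1520 to 3649 RPM. The 9 markers of plasmacytoid dendritic cells, a main source of type I interferon, summed to 117.6 to 252.5 RPM in HMMRTg/Tg mice and to 254.7 to 360.0 RPM in control mice, without overlap. The 1 marker of the 9 that was lower at an adjusted p under 0.05 was Cox6a2, a respiratory chain subunit that skeletal muscle also makes, with a mean of 1.27 RPM in HMMRTg/Tg mice and 105 RPM in control mice (adjusted p = 0.00376 in limma). Another of the 9, Bst2, is itself a member of the interferon-stimulated genes. Without these genes the sum of the other 7 markers overlapped, with 45.0 to 107.8 RPM in HMMRTg/Tg mice and 44.4 to 203 RPM in control mice. The part of these cells in the results below was not tested. In bulk tissue, fewer cells of a type and less RNA per cell cannot be told apart.

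No interferon-stimulated gene differed between the genotypes after adjustment over all genes, while many of them differed severalfold between HMMRTg/Tg mice. The highest and lowest HMMRTg/Tg mouse differed by a median of 1.34 on the log2 scale for the members, beside 0.77 for all genes tested. Among control mice the median was 0.73 for the members, below the 0.81 of all genes. At an adjusted p under 0.05 in limma, 0 members were higher and 0 were lower in HMMRTg/Tg mice, where 0.405% of the 13080 genes tested were called in either direction. Of the 39 members 38 passed the filter of 1 RPM in 3 mice, and Mx2 did not. At an unadjusted p under 0.05, 1 member was higher (Parp9) and 1 was lower (Isg20), against 6.49% of all genes higher and 3.22% lower. The tests of edgeR and DESeq2 on the recovered reads gave the same counts, 0 and 0 adjusted and 1 and 1 unadjusted. The median log2 fold change of the tested members was 0.12, with 22 positive and 16 negative, beside a median of 0.11 over all genes tested. That median over all genes was 0.01 in edgeR and −0.01 in DESeq2, and the split of all genes at an unadjusted p under 0.05 moved with it, with 849 higher and 421 lower in limma, 581 higher and 671 lower in edgeR, 596 higher and 779 lower in DESeq2, and 606 higher and 596 lower with TMM factors. The members' median moved alongside, to 0.08 in edgeR and 0.06 in DESeq2. It turned to −0.09 without mouse 8 and to −0.06 without mouse 1, and it was 0.24 without mouse 9 and 0.25 without mouse 3.

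**Figure D1:**
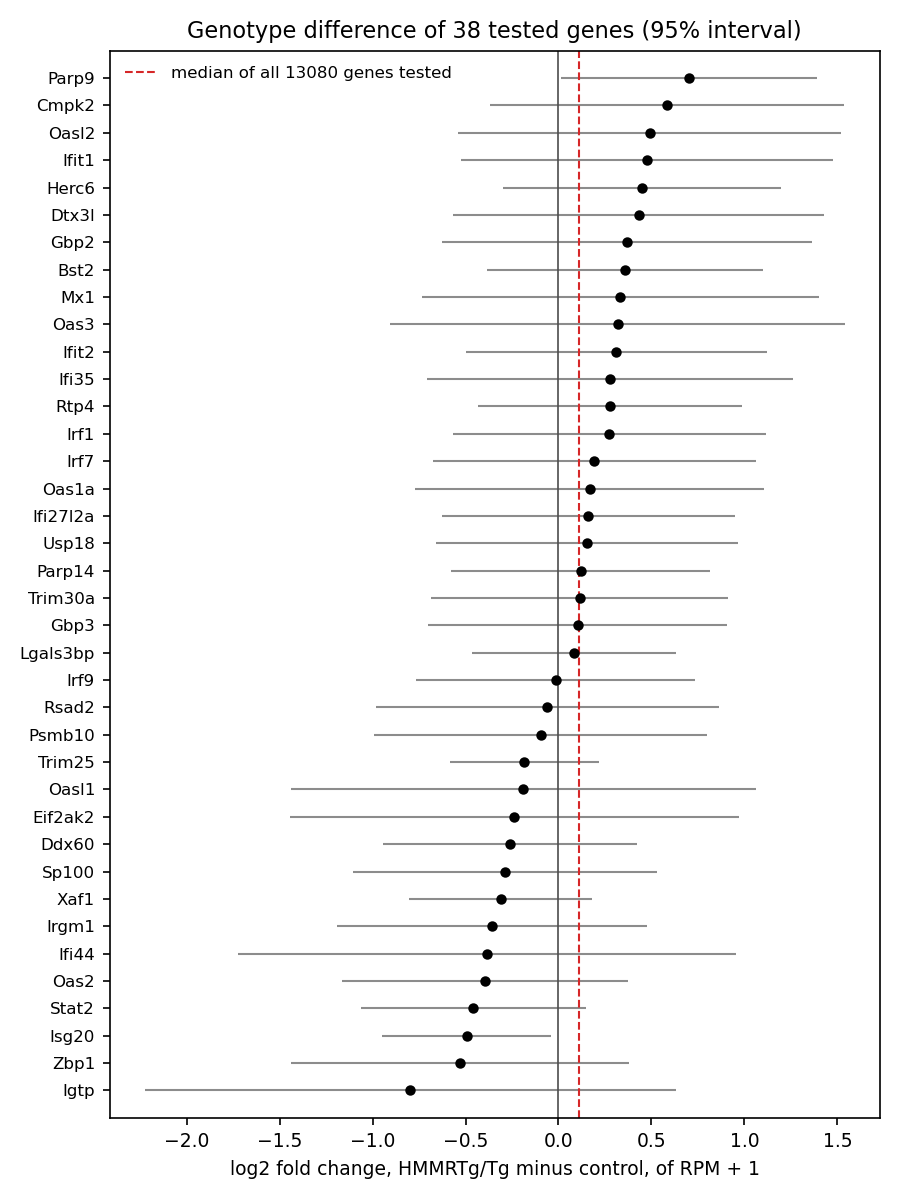
Log2 fold change of RPM + 1 (HMMRTg/Tg minus control, horizontal axis) of the 38 tested members from limma, ordered by size, with bars for the 95% confidence interval. Only the intervals of Parp9 at the top and Isg20 near the bottom leave out 0, neither after adjustment, and the dashed line marks the median of 0.11 over all 13080 genes tested.

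The width of the intervals sets what these 7 mice could show. The median half-width of the members' 95% intervals was 0.82 on the log2 scale. For 14 of the 38 tested members the whole interval lay between −1 and 1, that is, within a 2-fold difference either way, and for the others it reached past a 2-fold difference. The mean of log2(RPM + 1) over the 38 members was 4.70 ± 0.50 in HMMRTg/Tg mice (SD, n = 4) and 4.65 ± 0.30 in control mice (SD, n = 3), a difference of 0.04. By mouse it was 4.85, 5.34, 4.28 and 4.31 in HMMRTg/Tg mice 7, 8, 9 and 11, against 4.41, 4.56 and 4.99 in control mice 1, 2 and 3. The genotypes overlapped over the whole range, with mouse 8 highest and mouse 9 lowest, both of the same genotype.

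The 4 genes of signalling and transcription factors head the pathway. Stat2, the subunit of the type I complex that brings its activation domain, was read at 15.8, 21.3, 12.02 and 14.6 RPM in HMMRTg/Tg mice 7, 8, 9 and 11, against 18.8, 20.6 and 26.5 RPM in control mice 1, 2 and 3. Only mouse 8 of the HMMRTg/Tg mice reached the control range, and the log2 fold change was −0.46 (SE 0.27, adjusted p = 0.631 in limma). Irf1, a first-wave factor of the interferon-γ response, was read at 106, 110.4, 110.5 and 67.6 RPM in HMMRTg/Tg mice 7, 8, 9 and 11, against 51.7, 57.3 and 171 RPM in control mice 1, 2 and 3. The control mice here lay on both sides of the HMMRTg/Tg mice, and control mouse 3 had the highest value of the 7. Irf7, which amplifies type I interferon production, ranged from 15.3 to 46.8 RPM in HMMRTg/Tg mice and from 16.7 to 36.7 RPM in control mice. Irf9, the DNA-binding subunit of the type I complex, ranged from 24.4 to 41.0 RPM and from 17.4 to 49.4 RPM in the same order. In this group 0 of 4 genes passed an unadjusted p of 0.05.

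Genes that act on viral or misplaced RNA and DNA included the only member whose genotypes did not overlap. Isg20, an exonuclease that degrades single-stranded RNA (chromosome 7, 78913396 to 78920396 in GRCm38.p6, the assembly of mm10), was read at 31.6, 36.8, 38.6 and 27.9 RPM in HMMRTg/Tg mice 7, 8, 9 and 11. In control mice 1, 2 and 3 it was read at 46.5, 45.4 and 51.1 RPM. Every HMMRTg/Tg mouse lay below every control mouse, a pattern that 3.34% of all genes tested showed in this direction. Its log2 fold change was −0.49 (SE 0.21, 95% interval −0.95 to −0.04, adjusted p = 0.466 in limma). The unadjusted p in limma was 0.0358, and the exact two-sided permutation test gave p = 0.0571, the smallest that 4 mice against 3 allow. Its value under each alternative stayed negative, while the unadjusted p rose past 0.05 without a trend of the variance and without any 1 of mice 7, 11, 1, 2 and 3.

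The other members of this group had wider spreads. Ifit1, which binds viral RNA that lacks cap methylation, was read at 74.3, 112, 21.6 and 40.3 RPM in HMMRTg/Tg mice 7, 8, 9 and 11, against 37.96, 39.4 and 34.3 RPM in control mice 1, 2 and 3. The 3 control mice lay close together and inside the HMMRTg/Tg range, with mice 7, 8 and 11 above them and mouse 9 below, and the log2 fold change was 0.48 (SE 0.45, adjusted p = 0.772 in limma) and 0.11 without mouse 8. Zbp1, a sensor of Z-form nucleic acid that can trigger necroptosis, was read at 29.3, 55.0, 25.2 and 17.9 RPM in HMMRTg/Tg mice 7, 8, 9 and 11, against 28.7, 34.9 and 77.4 RPM in control mice 1, 2 and 3. Mouse 3 was again highest, and the log2 fold change of −0.53 (SE 0.41, adjusted p = 0.712 in limma) was −0.11 without mouse 3 and −0.83 without mouse 8. Eif2ak2, the kinase PKR, was at 2.89 to 2.98 RPM in the 3 control mice and ranged from 0.167 RPM in mouse 11, which is 1 read, to 5.67 RPM in mouse 8. Ifit2 and Ddx60, a helicase that assists RNA sensing, were measured at 3.51 to 4.99 and 7.86 to 15.8 RPM in HMMRTg/Tg mice and at 1.99 to 5.61 and 11.6 to 15.5 RPM in control mice. In the group of 6, 0 genes were higher and 1 lower at an unadjusted p under 0.05, and the median log2 fold change was −0.25.

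**Figure D2:**
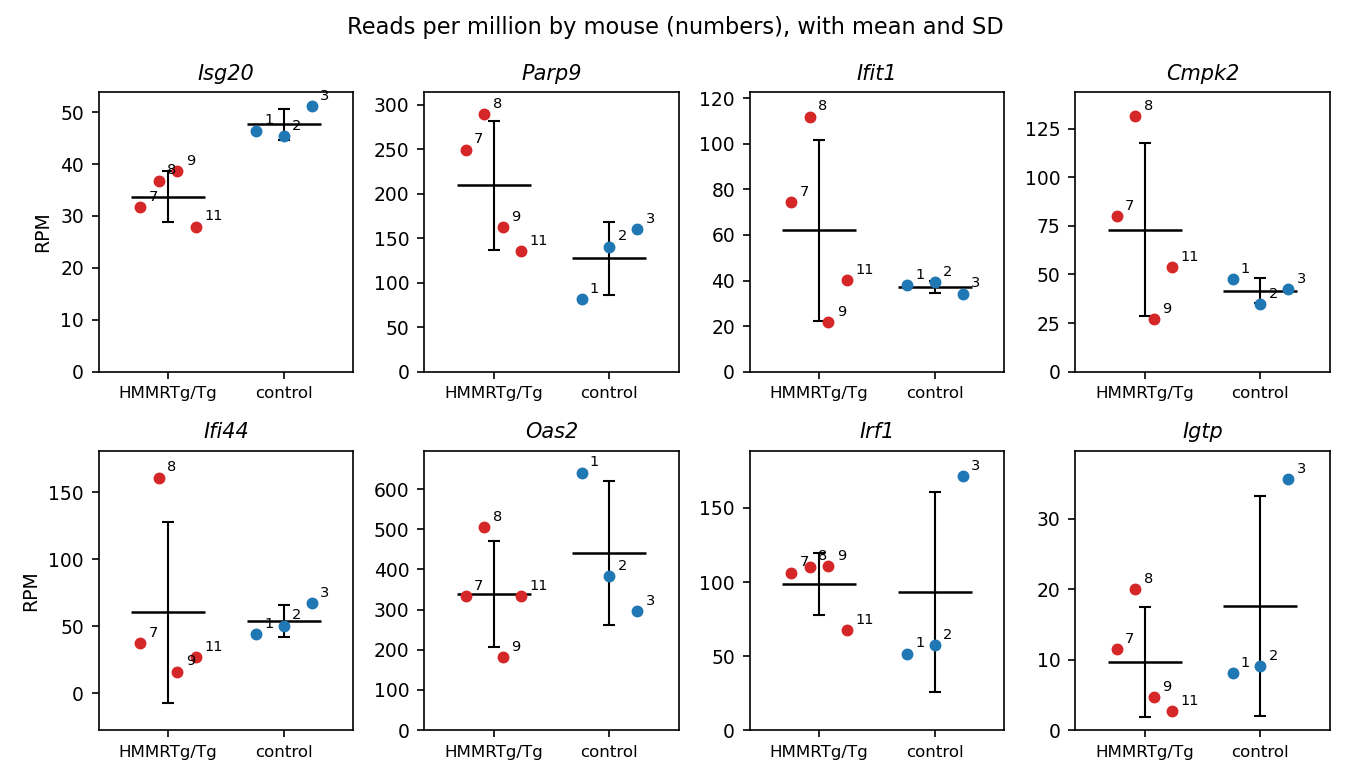
RPM of 8 members in each mouse (points, labelled by mouse number), HMMRTg/Tg mice in red and control mice in blue, with the mean and SD of each genotype. Only for Isg20 are the genotypes apart (27.9 to 38.6 RPM in HMMRTg/Tg mice, 45.4 to 51.1 RPM in control mice). Mouse 8 leads for Parp9, Ifit1, Cmpk2 and Ifi44, and mouse 3 for Irf1 and Igtp.

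Parp9, which joins ADP-ribose to ubiquitin in a complex with the ligase Dtx3l, had the lowest p of the members with a positive fold change. It was read at 249.7, 289, 163 and 136 RPM in HMMRTg/Tg mice 7, 8, 9 and 11, against 81.5, 141 and 160.2 RPM in control mice 1, 2 and 3. Mice 7 and 8 lay well above the control mice, whereas mice 9 and 11 lay beside control mice 2 and 3. The log2 fold change was 0.70 (SE 0.31, 95% interval 0.01 to 1.39, adjusted p = 0.502 in limma). The unadjusted p in limma was 0.0460, and the exact two-sided permutation test gave p = 0.229. The unadjusted p rose past 0.05 with no filter, with quantile normalization, without a trend and without any 1 of mice 7, 8 and 1. Dtx3l, whose annotated gene overlaps Parp9 on chromosome 16 by 558 bases, had 1.28 to 4.92 RPM in HMMRTg/Tg mice and 0.723 to 3.04 RPM in control mice. Whether either amplicon lies in the shared stretch was not tested. Parp14, a mono-ADP-ribosyltransferase, had 22.4 to 49.97 RPM in HMMRTg/Tg mice and 22.2 to 37.8 RPM in control mice.

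The 2′-5′ oligoadenylate synthetases make the messenger that activates RNase L, and Oasl1 and Oasl2 are their relatives. Oas2 had the highest RPM of all members and was read at 333, 504, 182 and 333 RPM in HMMRTg/Tg mice 7, 8, 9 and 11, against 641, 384 and 296 RPM in control mice 1, 2 and 3. Control mouse 1 was highest and mouse 9 lowest, and the log2 fold change of −0.39 (SE 0.35, adjusted p = 0.750 in limma) was −0.086 without mouse 1 and −0.64 without mouse 3. Oasl2 was read at 138, 244, 66.7 and 56.2 RPM in HMMRTg/Tg mice 7, 8, 9 and 11, against 48.3, 85.4 and 103 RPM in control mice 1, 2 and 3. Mice 7 and 8 were above all control mice and the other HMMRTg/Tg mice were not (log2 fold change 0.49, SE 0.47, adjusted p = 0.773 in limma, and 0.094 without mouse 8). Oas3 was read at 5.12, 6.74, 1.28 and 0.669 RPM in HMMRTg/Tg mice, in the same order, against 1.63, 1.32 and 3.16 RPM in control mice. Oasl1 had 4.10, 5.88, 0.511 and 1.00 RPM in HMMRTg/Tg mice, against 1.26, 2.98 and 4.44 RPM in control mice. Both were among the 4 members with the largest spread within genotype, and in both mice 7 and 8 stood above mice 9 and 11. Oas1a, which has near-identical neighbours whose reads its amplicon could share, was read at 4.09 to 14.7 RPM in HMMRTg/Tg mice and at 4.21 to 7.62 RPM in control mice.

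Antiviral effectors with other mechanisms were highest in mouse 8, with the exception of Rsad2. Cmpk2, a mitochondrial nucleotide kinase whose gene neighbours Rsad2, was read at 79.9, 131, 26.9 and 53.7 RPM in HMMRTg/Tg mice 7, 8, 9 and 11, against 47.7, 34.9 and 42.5 RPM in control mice 1, 2 and 3. Mice 7, 8 and 11 were above the control mice and mouse 9 below them (log2 fold change 0.59, SE 0.43, adjusted p = 0.693 in limma, and 0.23 without mouse 8). Bst2, also called tetherin, which holds budding virus at the cell surface, was read at 85.3, 169, 55.6 and 86.8 RPM in HMMRTg/Tg mice, against 53.3, 76.5 and 87.9 RPM in control mice. Only mouse 8 lay outside the control range (log2 fold change 0.36, SE 0.34, adjusted p = 0.768 in limma, and 0.066 without mouse 8). Rtp4, a chaperone of membrane receptors that is also antiviral, was read at 150.3, 249, 95.9 and 176 RPM in HMMRTg/Tg mice, against 157, 89.0 and 159.6 RPM in control mice (log2 fold change 0.28, SE 0.32, adjusted p = 0.820 in limma). Mx1, a dynamin-like GTPase, ranged from 2.43 RPM in mouse 9 to 14.4 RPM in mouse 8, and from 4.31 to 6.33 RPM in control mice. Mx2 reached 2.57 RPM in mouse 8 and was at most 0.702 RPM in the other 6 mice, with 0 reads in mouse 11. Rsad2, or viperin, which makes a chain-terminating nucleotide, was at 0.128 to 1.53 RPM in HMMRTg/Tg mice and 0.362 to 1.10 RPM in control mice, near the floor of these libraries. Log2 fold changes were positive for 4 of the 5 genes tested here (median 0.33), and 0 passed an unadjusted p of 0.05.

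Members tied to ubiquitin-like modification and TRIM proteins included the member with the least spread beside Isg20. Trim25, a ubiquitin ligase that activates RIG-I, was read at 126, 156, 146 and 114 RPM in HMMRTg/Tg mice 7, 8, 9 and 11, against 140.4, 156 and 162 RPM in control mice 1, 2 and 3. The ranges overlapped at nearly equal levels (log2 fold change −0.18, SE 0.18, adjusted p = 0.786 in limma). Trim30a, which damps Toll-like receptor signalling and has close paralogs that could share its reads, was read at 147, 222, 96.0 and 106 RPM in HMMRTg/Tg mice, against 190.2, 71.8 and 143 RPM in control mice. Its log2 fold change of 0.11 (SE 0.36, adjusted p = 0.947 in limma) turned to −0.04 in edgeR and −0.07 in DESeq2. Herc6, the ligase that attaches Isg15 in mouse, was read at 2.43, 2.89, 1.92 and 1.34 RPM in HMMRTg/Tg mice, against 0.904, 1.55 and 1.40 RPM in control mice. Mice 7, 8 and 9 were above the control mice (log2 fold change 0.45, SE 0.34, adjusted p = 0.702 in limma). Usp18, which removes Isg15 and restrains the type I receptor, had 9.33 to 24.7 RPM in HMMRTg/Tg mice and 10.5 to 15.0 RPM in control mice.

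The GTPases that guard against intracellular pathogens were split, with Igtp and Gbp2 highest in mouse 3 and Gbp3 and Irgm1 highest in mouse 8. Igtp, or Irgm3, was read at 11.5, 20.0, 4.73 and 2.68 RPM in HMMRTg/Tg mice 7, 8, 9 and 11, against 8.13, 9.05 and 35.7 RPM in control mice 1, 2 and 3. Control mouse 3 was highest and mouse 11 lowest, and the SD within genotype, 1.12 on the log2 scale, was the largest of the tested members. The log2 fold change of −0.80 (SE 0.65, adjusted p = 0.727 in limma) was −0.15 without mouse 3 and −1.22 without mouse 8. Gbp3 was read at 192, 269.6, 76.6 and 177 RPM in HMMRTg/Tg mice, against 162, 119.9 and 179.6 RPM in control mice. Mouse 8 led, and mouse 9 was the only one below the control range (log2 fold change 0.10, SE 0.36, adjusted p = 0.953 in limma). Gbp2 ranged from 8.37 to 15.0 RPM in HMMRTg/Tg mice and from 3.796 to 18.8 RPM in control mice, and Irgm1, which regulates the other IRG proteins, from 9.72 to 31.7 RPM and from 19.0 to 30.6 RPM.

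The remaining 7 members have varied roles. Ifi44, a GTP-binding-like protein of the antiviral response, was read at 37.0, 161, 15.98 and 26.8 RPM in HMMRTg/Tg mice 7, 8, 9 and 11, against 43.9, 50.2 and 67.1 RPM in control mice 1, 2 and 3. Mouse 8 stood apart from all others and the other 3 HMMRTg/Tg mice lay below the control mice. Its log2 fold change of −0.39 (SE 0.61, adjusted p = 0.874 in limma) became 0.08 in edgeR and 0.06 in DESeq2, and −1.04 without mouse 8. Xaf1, a partner of an inhibitor of apoptosis, was read at 31.9, 42.1, 27.2 and 30.8 RPM in HMMRTg/Tg mice, against 44.8, 35.8 and 41.8 RPM in control mice. Mouse 8 was the only HMMRTg/Tg mouse within the control range (log2 fold change −0.31, SE 0.22, adjusted p = 0.688 in limma). Ifi27l2a, a mitochondrial membrane protein, was at 85.9 RPM in mouse 9 and at 29.5 to 37.6 RPM in the other HMMRTg/Tg mice, against 32.04 to 45.6 RPM in control mice. It was highest in mouse 9, the mouse with the lowest value for more members than any other. Sp100, of PML nuclear bodies, and Psmb10, a catalytic subunit of the immunoproteasome, were highest in control mouse 3 at 222 and 24.8 RPM. Sp100 ranged from 56.9 to 137 RPM in HMMRTg/Tg mice and from 91.8 RPM upward in control mice, and Psmb10 from 9.54 to 13.7 RPM and from 6.51 RPM upward. Ifi35 and Lgals3bp, a secreted scavenger-receptor protein, had 8.06 to 20.1 and 87.8 to 168 RPM in HMMRTg/Tg mice and 4.52 to 14.8 and 98.3 to 152 RPM in control mice.

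The range between mice of a genotype was, at the median over the members, above that of all genes in HMMRTg/Tg mice and below it in control mice. Not every member was spread, and Isg20 and Trim25 had an SD within genotype of 0.17 each on the log2 scale. The median SD of log2(RPM + 1) within genotype was 0.60 for the tested members, beside 0.41 for all genes tested. Among HMMRTg/Tg mice the highest and lowest mouse differed by a median of 1.34 on the log2 scale for the members, beside 0.77 for all genes tested, and by more than 1 for 27 of the 39 members. Among control mice the median was 0.73 for the members, beside 0.81 for all genes, and 15 members differed by more than 1. The share of all genes that differed by more than 1 was not computed. The genotypes hold 4 and 3 mice, and a range grows with the number of mice.

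Which mouse stood highest was uneven. Mouse 8 had the highest value of the 7 mice for 23 of 39 members (59.0%), beside 12.4% of all genes tested, and the lowest for 0 members. Control mouse 3 was highest for 11 members (28.2%, beside 20.7% of all genes) and lowest for 0. Mouse 9 was lowest for 14 members (35.9%, beside 7.48% of all genes) and mouse 11 for 9 (23.1%, beside 16.8% of all genes). Control mouse 1 was lowest for 11 (28.2%, beside 33.8% of all genes). Within their genotypes, mouse 8 was highest for 32 members and mouse 3 for 25, and the share of all genes within a genotype was not computed. The members highest in mouse 8 included Irf7, Ifit1, Mx1, Mx2, Oas1a, Oas3, Oasl1, Oasl2, Usp18, Bst2, Cmpk2, Rtp4, Ifi44, Parp9, Parp14 and Dtx3l. Those highest in mouse 3 were Stat2, Irf1, Irf9, Isg20, Ifit2, Gbp2, Igtp, Zbp1, Trim25, Sp100 and Psmb10. Each of these patterns is that of 1 library, so the mouse, its section and its library cannot be told apart.

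**Figure D3:**
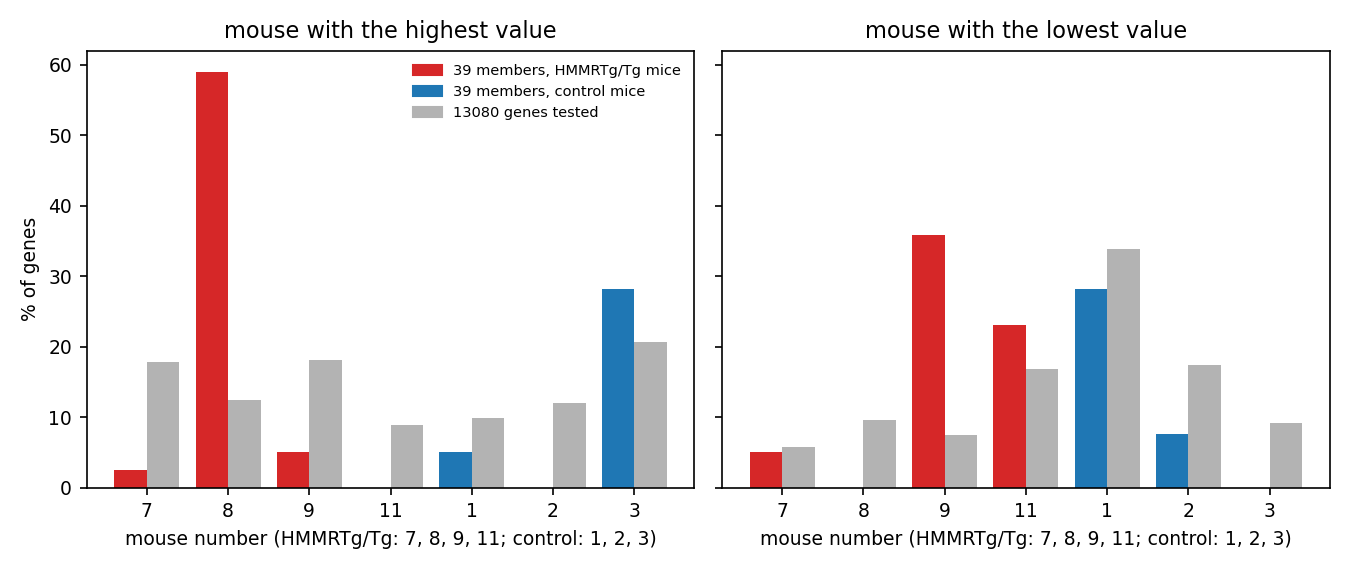
Share of genes (%) for which each mouse had the highest value (left) or the lowest value (right) of the 7 mice, for the 39 members (HMMRTg/Tg mice red, control mice blue) and for all 13080 genes tested (grey). Mouse 8 is highest for 59.0% of the members and 12.4% of all genes, and mouse 9 is lowest for 35.9% and 7.48%.

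**Figure D4:**
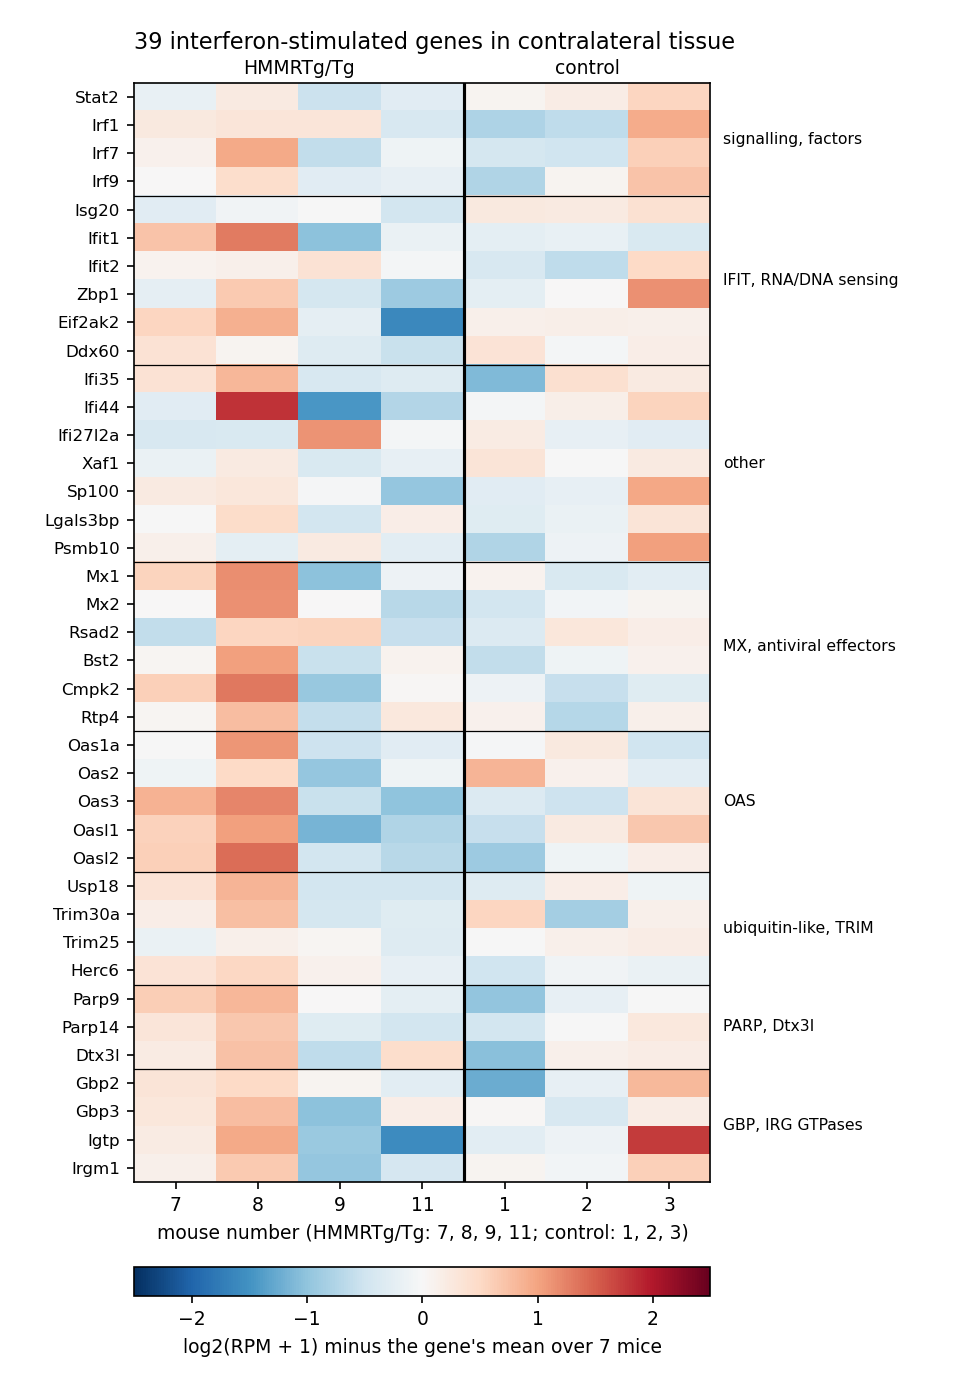
Log2(RPM + 1) of the 39 members in each mouse minus the mean of the gene over the 7 mice (red higher, blue lower), with HMMRTg/Tg mice left and control mice right of the thick line and genes grouped by role. Mouse 8 is red in most rows, most of all for Ifi44, mice 9 and 11 are mostly blue, and mouse 3 is reddest for Igtp, Zbp1, Psmb10, Sp100 and Irf1.

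The interferons themselves were nearly unread. Of 21 ligand names, 16 matched a gene of the panel, and only Ifng passed the filter. Ifnb1, the first type I interferon made after DNA sensing, was read 5 and 4 times in HMMRTg/Tg mice 7 and 8, 0 times in HMMRTg/Tg mice 9 and 11, and 0 times in control mice 1, 2 and 3. Mice 7 and 8 are the pair of HMMRTg/Tg mice with the higher mean over the members, but a count of 0 allows up to 3 reads, and counts of 4 and 5 are little above that. The Ifna genes and Ifnab gave 16 reads at most over all 7 mice (Ifna13, with 10 in HMMRTg/Tg mice and 6 in control mice), and 5 ligand genes, Ifna5, Ifna9, Ifna12, Ifna14 and Ifne, gave 0 reads in every mouse. Ifnk, Ifnl2 and Ifnl3 gave 13, 3 and 12 reads in all. Ifng was read 23, 21, 10 and 18 times in HMMRTg/Tg mice 7, 8, 9 and 11, against 22, 9 and 86 times in control mice 1, 2 and 3. In RPM this was 2.95, 2.25, 1.28 and 3.01 RPM in HMMRTg/Tg mice, against 3.98, 0.994 and 10.1 RPM in control mice. Control mouse 3 led for Irf1, Igtp and Gbp2 and had the highest Ifng of the 7. Gbp3 and Irgm1 were instead highest in HMMRTg/Tg mouse 8, which had 2.25 RPM of Ifng. Control mouse 3 also had the highest sum of T cell markers (918 RPM) and of B cell markers (1038 RPM). Control mouse 1 had sums of 824 and 927 RPM in the same order, and the lowest Irf1 and Gbp2 of the 7. HMMRTg/Tg mouse 7 had 928 RPM of B cell markers. It also had the highest sum of NK cell markers, 19.2 RPM, beside 18.4 RPM in control mouse 3. The part of these cells in the values of mouse 3 was not tested. The log2 fold change of Ifng was −0.54 (SE 0.53, adjusted p = 0.783 in limma).

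Receptors and signalling genes had a median SD within genotype of 0.38 on the log2 scale, beside 0.60 for the members. Of 21 names, 19 matched and 18 were tested, while Socs3, a feedback inhibitor with 0 to 6 reads per mouse, did not pass the filter. Of the 18, 0 passed an unadjusted p of 0.05 in either direction in limma, with 9 positive and 9 negative and a median log2 fold change of −0.01. The count of lower genes was 1 with TMM factors, with no filter, in edgeR and without control mouse 1, and 2 in DESeq2 and without control mouse 2, and the count of higher genes was 2 without control mouse 3. Ifnar1 ranged from 37.98 to 59.7 RPM in HMMRTg/Tg mice and from 32.5 to 46.5 RPM in control mice, Ifnar2 from 83.4 to 144 and from 98.2 to 142 RPM, and Ifngr1 from 359.8 to 429 and from 326 to 489 RPM. The lowest p was that of Stat3, the factor of the interleukin-6 family, with 227, 216, 239 and 329 RPM in HMMRTg/Tg mice 7, 8, 9 and 11, against 144, 180.5 and 239.9 RPM in control mice 1, 2 and 3 (log2 fold change 0.44, adjusted p = 0.572 in limma). Irf5, a factor of Toll-like receptor signalling, had −0.85 (adjusted p = 0.624) and Ifnlr1, the receptor of type III interferon in epithelium, 0.54 (adjusted p = 0.631 in limma).

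A longer list of further interferon-induced genes likewise held none called after adjustment. Of 78 names, 64 matched and 57 were tested. At an unadjusted p under 0.05 in limma, 3 were higher and 3 lower, beside 6.49% and 3.22% of all genes tested. At an adjusted p under 0.05, 0 were called, and the median log2 fold change was 0.06, beside 0.11 over all genes tested. The count of higher genes was 5 without control mouse 3 and 2 without mouse 8 or control mouse 1, and that of lower genes was 6 without control mouse 2 and 2 without control mouse 3, with a filter of 1 RPM in all mice or with a pseudocount of 0.1. The genotypes did not overlap for 4 of the 57 genes, Phf11d, Ly6a, Apobec3 and Nlrc5, beside 9.86% of all genes tested in either direction. The lowest p was that of Shisa5, an endoplasmic reticulum protein that is also a target of p53, read at 571, 448, 338 and 469.7 RPM in HMMRTg/Tg mice 7, 8, 9 and 11, against 1654, 569 and 1126 RPM in control mice 1, 2 and 3. Control mice 1 and 3 stood far above the rest and control mouse 2 did not (log2 fold change −1.18, SE 0.33, adjusted p = 0.265 in limma). Phf11d, a zinc-finger protein, was read at 27.9, 39.9, 19.8 and 24.6 RPM in HMMRTg/Tg mice, against 9.40, 15.6 and 14.03 RPM in control mice, without overlap (log2 fold change 1.04, SE 0.30, adjusted p = 0.274 in limma). Ly6a, or Sca-1, a surface protein of progenitor cells, T cells and endothelium, was read at 116, 118, 186 and 161 RPM in HMMRTg/Tg mice, against 211, 243 and 261 RPM in control mice, also without overlap (log2 fold change −0.73, SE 0.21, adjusted p = 0.275 in limma). In this list mouse 3 was highest for 28 of the 57 genes and mouse 8 for 12, beside 20.7% and 12.4% of all genes tested. Of the chemokines that draw T cells, Cxcl10 was highest in HMMRTg/Tg mouse 8 (55.1 RPM), and Cxcl9 and Cxcl11 were highest in control mouse 3 (377 and 8.77 RPM, against at most 287 and 2.35 RPM in the other mice).

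The promoters of the members were searched for the elements that the interferon complexes bind, since many members were highest in the same mouse. RefSeq windows of 300 bases, from 250 before to 50 after an annotated start (GRCm38.p6), were found for 30 of the 39 members. The members without a window, which were not searched, were Parp9, Parp14, Mx1, Mx2, Usp18, Rtp4, Oas2, Zbp1 and Ifi27l2a. Of these, all but Oas2, Zbp1 and Ifi27l2a were highest in mouse 8. The core of the interferon-stimulated response element was searched as GAAANNGAAA on both strands and the gamma-activated sequence as TTCNNNGAA, which reads the same on both strands. Overlapping matches of the core run together in Bst2, Gbp3, Irgm1 and Oas1a, and in Bst2 both elements share bases. The core was present for 13 of 30 members (43.3%), beside 3.99% of 27025 genes with a window, and the gamma-activated sequence for 8 of 30 (26.7%), beside 9.55%. Both were present for Bst2, Eif2ak2, Igtp and Oas1a, and neither for 13 members. The shares are a description of letters in these windows. Windows of 5 members described above are given because they show each case, with matches to either element in capitals.
Ifit1, chr19:34640639-34640938, plus strand: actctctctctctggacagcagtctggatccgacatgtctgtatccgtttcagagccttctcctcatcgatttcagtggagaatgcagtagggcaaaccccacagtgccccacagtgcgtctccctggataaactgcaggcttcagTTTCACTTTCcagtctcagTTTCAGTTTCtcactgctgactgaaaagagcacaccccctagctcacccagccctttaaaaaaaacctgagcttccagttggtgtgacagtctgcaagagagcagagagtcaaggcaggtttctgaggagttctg
Gbp3, chr3:142559794-142560093, plus strand: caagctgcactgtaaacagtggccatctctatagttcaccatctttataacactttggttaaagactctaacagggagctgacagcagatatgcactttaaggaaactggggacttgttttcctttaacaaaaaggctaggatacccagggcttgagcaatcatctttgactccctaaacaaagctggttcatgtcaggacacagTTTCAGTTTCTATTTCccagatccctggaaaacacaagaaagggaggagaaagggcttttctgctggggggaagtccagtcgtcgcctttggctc
Igtp, chr11:58199306-58199605, plus strand: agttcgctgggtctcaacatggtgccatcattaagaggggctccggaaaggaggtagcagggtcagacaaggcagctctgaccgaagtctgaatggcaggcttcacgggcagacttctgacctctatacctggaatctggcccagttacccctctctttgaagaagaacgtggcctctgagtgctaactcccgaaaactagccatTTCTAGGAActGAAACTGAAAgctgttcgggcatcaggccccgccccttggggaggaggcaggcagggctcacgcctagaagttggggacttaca
Isg20, chr7:78913174-78913473, plus strand: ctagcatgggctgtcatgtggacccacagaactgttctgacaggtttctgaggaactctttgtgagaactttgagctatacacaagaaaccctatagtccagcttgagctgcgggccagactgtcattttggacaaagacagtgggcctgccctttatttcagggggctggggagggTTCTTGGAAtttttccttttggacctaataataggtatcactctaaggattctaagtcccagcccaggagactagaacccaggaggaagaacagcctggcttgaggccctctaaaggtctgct
Cmpk2, chr12:26468965-26469264, plus strand: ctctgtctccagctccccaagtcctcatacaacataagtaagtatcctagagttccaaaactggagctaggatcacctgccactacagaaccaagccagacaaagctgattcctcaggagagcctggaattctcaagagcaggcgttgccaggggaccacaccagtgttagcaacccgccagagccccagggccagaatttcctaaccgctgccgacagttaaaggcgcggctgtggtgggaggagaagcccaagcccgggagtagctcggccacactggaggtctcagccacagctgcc

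Counted from the start site, the window of Ifit1 holds separate matches to the core that begin at −104 and −85. The Gbp3 window shown holds a run of overlapping matches from −45. The window of its other annotated start holds no match to either element. Ifit1 and Gbp3 were both highest in mouse 8. Igtp, highest in mouse 3, has a gamma-activated sequence at −45 and a core at −34, with 2 bases between them. Isg20, the member with the lowest p for the genotype, has a gamma-activated sequence at −73 in the window of 1 of its annotated starts and no match to the core in any. Cmpk2 has no match to either, which says only that these letters are not in this window, although it was highest in mouse 8 like Ifit1. Members highest in mouse 8 and in mouse 3 were thus found with and without each element.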

How the data were processed

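The authors extracted RNA from 3 consecutive paraffin sections per mouse, sequenced amplicon libraries on an Ion Torrent S5 and obtained read numbers per gene from the AmpliSeqRNA plug-in. The deposited matrix holds 1 value per gene and mouse, labelled TPM by the authors and used here as RPM (reads per 1e6 reads), because each mouse sums to 1e6 and 100% of values below 1000 reads are whole reads within a tolerance of 0.05 reads. The submitters' processing notes name mm10 and Transcriptome Analysis Console, and the aligner is not given in the sources used here. Of the symbols, 27 stood as spreadsheet dates and were read from the amplicon names.

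Log2(RPM + 1) was tested with limma 3.58.1 in R 4.3.3 (lmFit, eBayes with a trend, genotype as the only term) for the 13080 genes that reached 1 RPM in 3 or more mice, and p-values were adjusted over all of them (Benjamini-Hochberg). On this scale the change of genes with few reads is understated. Alternatives were pseudocounts of 0.1 and 10, a filter of 1 RPM in all 7 mice or none, TMM factors, quantile normalization, no trend, array weights, edgeR 4.0.16 and DESeq2 1.42.0 on the recovered reads, and leaving out each mouse. The labels do not say that sections or litters were shared, and every pair of libraries of a genotype differed far beyond the sampling of reads (chi-square over its degrees of freedom, 25.7 to 130.0). Full values are given for members with an adjusted p under 0.05 (0), the 6 lowest p per direction, the 6 highest means, the 4 largest spreads within genotype and non-overlapping genotypes, 19 members in all, and for the 3 lowest p of each further list. Irf1 was added after its values were seen, as were Ifi27l2a, Cxcl9, Cxcl10 and Cxcl11, and the sum of plasmacytoid dendritic markers without Cox6a2 and Bst2. The members and all lists were chosen with earlier results of these data known.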

Additional observations from a re-analysis of the deposited data

Results flagged for a closer look

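Dixon's test was tried on RPM among the 4 HMMRTg/Tg mice, not on the log2 scale used for the other spreads. For 3 members a mouse lay so far from the nearest other that its gap passed the 95% critical value. Ifi44 was at 161 RPM in mouse 8, with the other HMMRTg/Tg mice at 15.98 to 37.0 RPM. Ifi27l2a was at 85.9 RPM in mouse 9, with the others at 29.5 to 37.6 RPM. Irf1 was at 67.6 RPM in mouse 11, with the others at 106 to 110.5 RPM. Chance flags about 1 in 20 groups and 39 members were tried. The 3 control mice are too few for this test.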

How the results depend on the processing

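At an adjusted p under 0.05, 0 members were called under all 17 alternatives, and the lowest adjusted p of any member was 0.162 (Isg20 in DESeq2). At an unadjusted p under 0.05, the count of higher members was 0 with no filter, with quantile normalization and without a trend, and the count of lower members was 0 without a trend. Leaving out each mouse gave 0 to 3 higher and 0 to 2 lower members and a median of −0.09 to 0.25. The sign held under every alternative for 17 of the 38 tested members and for 13 of the 19 described in full. It turned for Ifi44 in edgeR (0.085) and DESeq2 (0.062), for Oasl1 with array weights (0.054) and for Trim30a in edgeR (−0.041) and DESeq2 (−0.070). Over the fits that left out 1 mouse, the log2 fold change was −0.14 to 0.46 for Gbp3, −1.04 to 0.041 for Ifi44, −0.042 to 0.70 for Oas3, −0.56 to 0.17 for Oasl1, −0.0002 to 0.51 for Rtp4 and −0.28 to 0.41 for Trim30a. Of the 13 whose sign held, it moved by over 1.5 times without 1 mouse for Igtp (−1.22 to −0.15), Zbp1 (−0.83 to −0.11), Oas2 (−0.64 to −0.086), Trim25 (−0.25 to −0.10), Oasl2 (0.094 to 0.79), Ifit1 (0.11 to 0.89), Bst2 (0.066 to 0.59), Cmpk2 (0.23 to 0.98) and Parp9 (0.41 to 0.89). The cause was not tested. No paired analysis was possible because the genotypes share no mouse number. With 4 mice against 3, the 95% interval reached past 2-fold for most members, and fold changes of members with few reads are understated.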

Other observations

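Other interferon-induced genes of the longer list, chosen after their values were seen, gave other orders of mice. Nlrc5, the activator of MHC class I genes, was read at 0.128, 36.9, 20.5 and 22.6 RPM in HMMRTg/Tg mice 7, 8, 9 and 11, against 49.5, 56.7 and 139.8 RPM in control mice 1, 2 and 3, and its value in mouse 7 was 1 read. Ifi205, of the family that binds DNA, was at 1.28 RPM in mouse 7 and at 70.1 to 103 RPM in the other HMMRTg/Tg mice, against 73.4, 220.4 and 80.6 RPM in control mice 1, 2 and 3. Apobec3, a cytidine deaminase that restricts retroviruses, was at 61.6, 48.7, 168 and 154 RPM in HMMRTg/Tg mice 7, 8, 9 and 11, against 27.1, 35.7 and 46.8 RPM in control mice 1, 2 and 3. Its log2 fold change was 1.37 (adjusted p = 0.311 in limma), and mice 9 and 11, the lowest HMMRTg/Tg mice for 20 and 17 of the 39 members, were the highest here.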
